A study of Mus musculus with 4 samples.

Results

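The nuclear genome encodes most subunits of the 5 complexes of oxidative phosphorylation, and 85 of these genes were followed here in TCRαβ+CD8αα+ intraepithelial lymphocytes (IELs) of the mouse small intestine. The members were protein-coding genes chosen by symbol: the Ndufa, Ndufb, Ndufc, Ndufs and Ndufv genes of complex I without the Ndufaf assembly factors, Sdha to Sdhd of complex II, the Uqcr genes and Cyc1 of complex III, the Cox4 to Cox8 genes of complex IV and the Atp5 genes of complex V. The RefSeq annotation holds 89 such genes, and 85 of the 19339 genes listed in every library were among them (39 of complex I, 4 of complex II, 9 of complex III, 16 of complex IV and 17 of complex V). Cox8b, Cox8c, Ndufa4l2 and Ndufb1 were not matched and were not analysed here. Of the 85, 83 had at least 1 FPKM (fragments per kilobase of transcript, scaled to the mapped fragments of the library) in at least 2 libraries and were tested, and Cox4i2 and Cox7b2 were below that level. The genes lie on many chromosomes, with 8 on chromosome 7 as the largest group on an autosome and 3 on the X chromosome.

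Complexes I to IV of the inner mitochondrial membrane pass electrons from NADH and succinate to oxygen and, at complexes I, III and IV, pump protons out of the matrix, while complex V, the ATP synthase, lets protons return and makes ATP. Each complex apart from complex II combines subunits encoded in the nucleus with others encoded in mitochondrial DNA, and the nuclear subunits include catalytic core proteins, accessory proteins and, for some positions, isoforms that differ between tissues. T cells draw on these complexes for ATP and for the NAD+ and metabolites that proliferation and effector functions require. Enterocytes, the absorptive cells between which IELs reside, are also rich in mitochondria.

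The study asked what the histone H3K27 demethylase Kdm6b does in intestinal IELs. All mice were C57BL/6 and carried floxed Kdm6b alleles. The control libraries came from Kdm6b F/F mice and the Kdm6b-deficient libraries from Kdm6b F/F-CD4Cre mice, in which the CD4Cre transgene is active from the late double-negative thymocyte stage, so that αβ T cells in general are targeted. The age of the mice is not given in the sources used here. IELs were sorted as CD45+CD4-TCRβ+CD8α+CD8β- cells and the RNA of 3 mice was pooled for each library. Each genotype had 2 libraries, replicates 1 and 3, referred to below as control 1, control 3, deficient 1 and deficient 3. Because each library is a pool, p-values measure only the spread between these pools.

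Kdm6b itself did not separate the groups. It was at 16.5 FPKM in control 1, 16.0 in control 3, 11.1 in deficient 3 and 18.2 in the library labelled as deficient 1, which was above both controls (log2 fold change -0.18, SE 0.29, limma adjusted p = 0.886). A deletion of part of the gene need not show in a value over the whole gene, and directions given below rest on the label of that library. Relative sequencing depth, read from the smallest FPKM steps of single-transcript genes, lay between 0.865 and 1.02 of that of control 1. Steps were sought only from 0.05 to 0.13 FPKM times kilobases, in 50 to 194 genes, which bounds this estimate. Genes at 0 numbered 4531 in control 1, 2773 in control 3, 3119 in deficient 1 and 1625 in deficient 3. T cell markers were abundant in each library: Cd3g, a chain of the T cell receptor complex, was at 2167 and 1702 FPKM in the controls and 1762 and 1259 FPKM in the deficient libraries, and Cd8b1 and Cd4, whose products the sort excluded, were at most at 1.64 FPKM and at 30.6 and 10.1 against 30.5 and 3.17 FPKM. The summed level of 11 T cell markers was 5712 and 4622 FPKM in the controls and 4478 and 3235 FPKM in the deficient libraries. The summed level of 25 markers of intestinal epithelial cells, which the sort should leave out, was 1499 FPKM in control 1, 4702 FPKM in control 3, 4406 FPKM in deficient 1 and 11551 FPKM in deficient 3. None of the 25 was at 0 in any library, and each of the 25 was lowest in control 1 and highest in deficient 3. Summed levels of 5 B cell markers ranged from 31.5 to 84.8 FPKM and those of 9 myeloid markers from 3104 to 5260 FPKM, without that order. Of the 9 myeloid markers, 8 had a log2 fold change above 0 (median 0.47). Both deficient libraries lay above both controls for 5 of them (55.6%, against 18.4% of all genes). Both lay below for 1 (11.1%, against 18.6% of all genes). In bulk RNA, fewer cells of a type and less RNA per cell cannot be told apart.

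The oxidative phosphorylation genes were among the more abundant transcripts of these libraries. Their summed level was 17476 FPKM in control 1, 22175 FPKM in control 3, 20821 FPKM in deficient 1 and 27441 FPKM in deficient 3, or 3.02%, 3.60%, 3.45% and 4.24% of each library's total FPKM. The sum was lowest in control 1 and highest in deficient 3, and the values of control 3 and deficient 1 lay between them with control 3 above deficient 1, so the genotypes overlapped. The median member was at 186 and 236 FPKM in the controls and at 232 and 275 FPKM in the deficient libraries, while the median of the mean levels of all 12009 genes tested was 13.3 FPKM. FPKM is scaled to transcript length, so that levels can be compared between genes, and mean levels of tested members ran from 0.78 FPKM for Cox6a2 to 934 FPKM for Atp5b, a 1197-fold range.

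**Figure D1:**
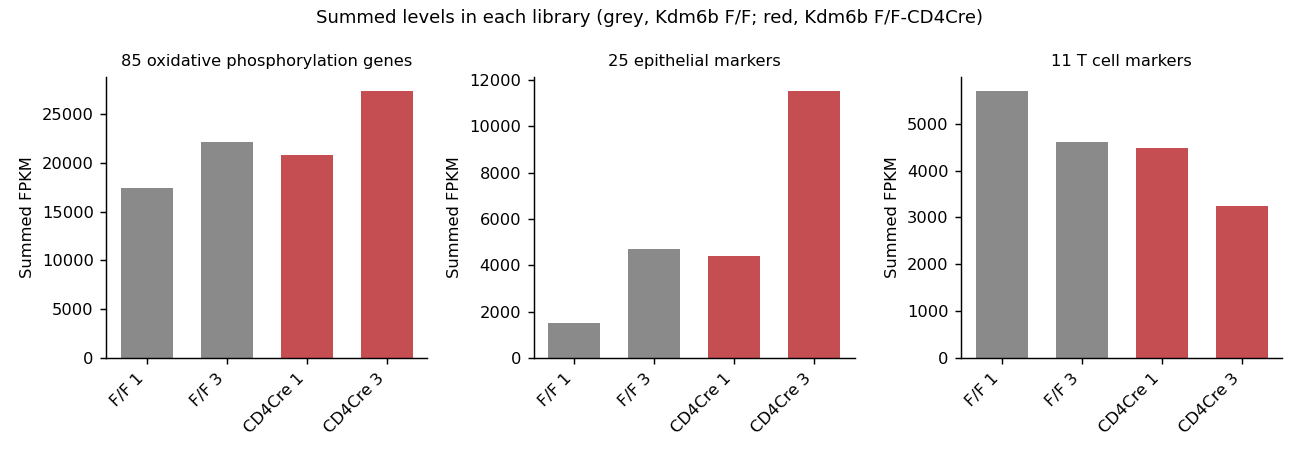
Summed FPKM of the 85 oxidative phosphorylation genes, 25 epithelial markers and 11 T cell markers (vertical axes, each from 0) in each library (bars; grey, Kdm6b F/F replicates 1 and 3; red, Kdm6b F/F-CD4Cre replicates 1 and 3). The first and second panels are lowest in control 1 and highest in deficient 3 with control 3 above deficient 1, and the T cell markers run from 5712 FPKM in control 1 down to 3235 FPKM in deficient 3.

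The proportions of the complexes varied by a few percentage points between libraries. Complex I took 32.9% and 31.3% of the members' summed FPKM in the controls and 32.3% and 30.5% in the deficient libraries, and complex V took 27.7% and 28.6% against 26.9% and 27.6%. Complex IV took 22.2% to 22.6%, complex II 4.67% to 5.21%, and complex III 12.4% and 12.9% in the controls against 13.3% and 14.4% in the deficient libraries. The deficient libraries thus both lay above both controls in the share of complex III and below both in that of complex V, the shares of the other complexes overlapped, and with 2 libraries a group the smallest exact two-sided permutation p is 0.333. Per gene, complex I had the lowest median level in each library, at 146 and 183 FPKM in the controls and 176 and 218 FPKM in the deficient libraries.

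Comparing the genotypes, most oxidative phosphorylation genes had somewhat higher values with the label Kdm6b F/F-CD4Cre, but none passed the test. The log2 fold change, the difference of group means of log2(FPKM + 1), was positive for 80 of 83 tested members (96.4%), against 50.1% of all 12009 genes tested, and its median was 0.28 (quartiles 0.17 and 0.42), against 0.00097 over all genes. Log2 fold changes of the members stayed between -0.36 and 0.78, whereas 6.2% of all genes were above 1 and 0.441% below -1. With limma and Benjamini-Hochberg adjustment over all genes tested, 0 members had an adjusted p below 0.05, and 0 did at an unadjusted p below 0.05, which 5.35% of all genes (642) had. The smallest unadjusted p of a member was 0.0625, for Ndufa12, and the smallest adjusted p was 0.755. Both deficient libraries lay above both controls for 18 of 83 members (21.7%), near the background of 18.4% of all genes. Both lay below for 1 member, Ndufa1, against a background of 18.6%, and the groups overlapped for the other 64. With 1 library left out, fewer values need to be ordered and the background rises. Members whose remaining deficient values lay above the remaining control values then numbered 19 without control 1 (28.9% of all genes), 75 without control 3 (38.1%), 74 without deficient 1 (39.2%) and 21 without deficient 3 (32.5%), and the median log2 fold change was 0.086, 0.46, 0.49 and 0.092.

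**Figure D2:**
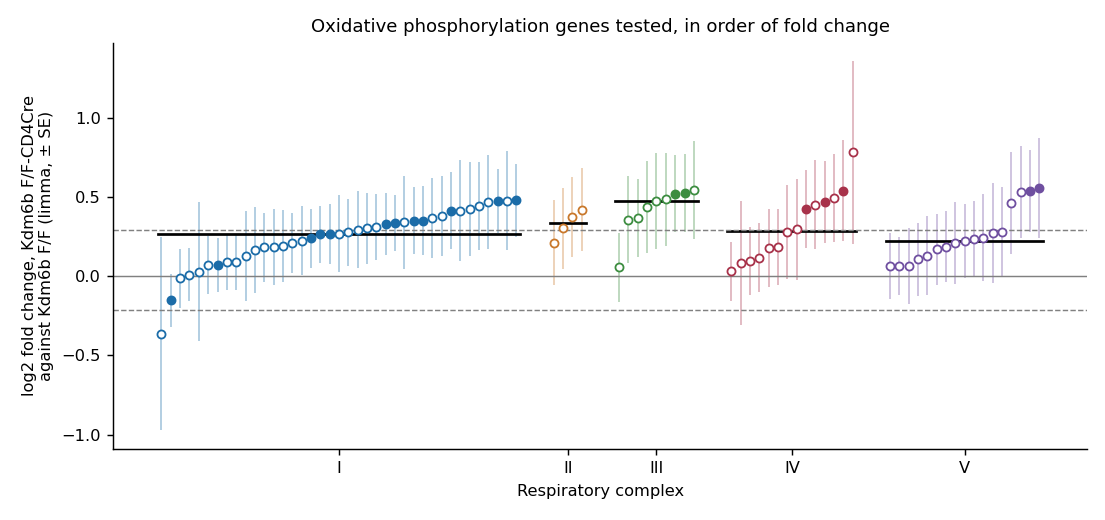
Log2 fold change of each of the 83 tested genes (points, ± SE of limma; vertical axis) in order of fold change in each complex (horizontal axis). Filled points are genes whose deficient libraries both lie above, or for Ndufa1 below, both controls, black bars are medians of a complex, and grey lines are the median (solid) and quartiles (dashed) of all genes tested; complex III has the highest median, 0.47.

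The members' values followed a common order over single libraries. Of the 83 members, 67 (80.7%) had their highest value in deficient 3 and their lowest in control 1, against 22.1% of all genes tested. For 52 of them (12.6% of all genes had this order) control 3 was above deficient 1, and for 15 deficient 1 was above control 3. The median difference on the log2(FPKM + 1) scale was 0.36 between the controls (control 3 minus control 1, 77 members above 0) and 0.40 between the deficient libraries (replicate 3 minus replicate 1, 78 members above 0). Between genotypes it was 0.28 for the libraries numbered 1, 0.31 for those numbered 3 and -0.10 for deficient 1 minus control 3, for which 62 of 83 members were below 0. By these medians, the libraries of a genotype were as far apart as the genotypes. The order deficient 3, control 3, deficient 1, control 1 was also that of the summed epithelial markers, whose levels relative to control 1 were 7.70, 3.14, 2.94 and 1. With the mean log2 level of the 25 epithelial markers as a covariate in limma, which leaves 1 residual degree of freedom, the members' median log2 fold change was -0.07, with 30 members above 0 and 53 below.

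**Figure D3:**
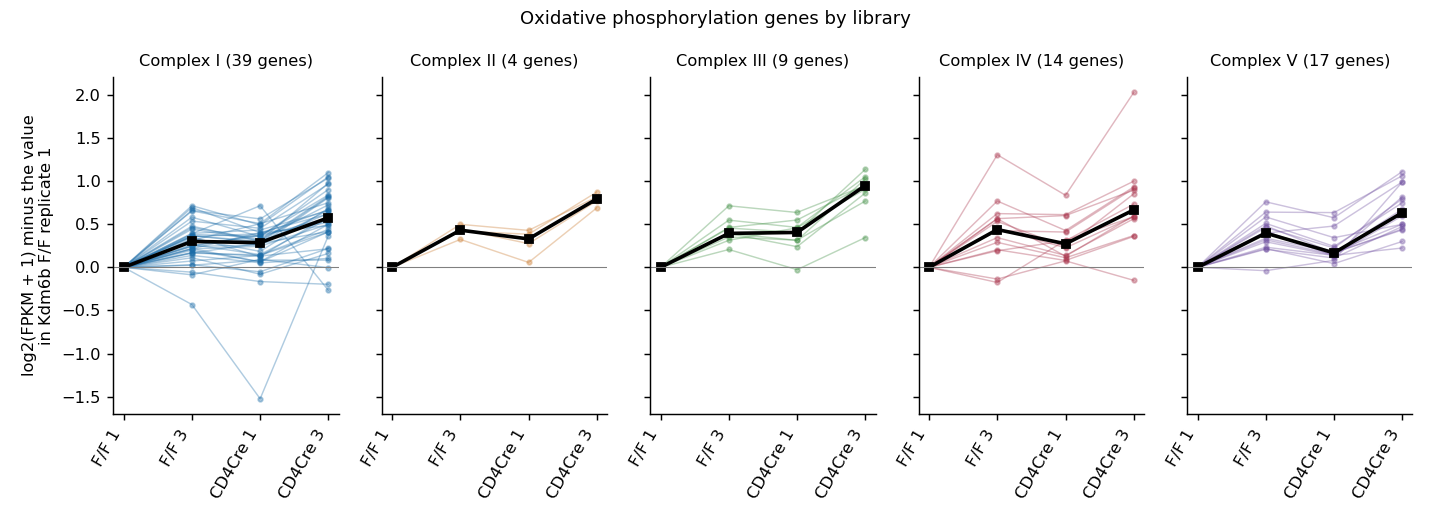
Level of each tested gene in each library as log2(FPKM + 1) minus its value in control 1 (vertical axis), by complex. Thin lines join the values of 1 gene, black squares are the median of the complex, and libraries are labelled F/F for Kdm6b F/F and CD4Cre for Kdm6b F/F-CD4Cre; in each complex the median is highest in deficient 3, and control 3 and deficient 1 lie between it and control 1.

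Complex I, the NADH dehydrogenase, had 39 members tested, with a median log2 fold change of 0.27 and 36 above 0. The median was 0.13 without control 1, 0.10 without deficient 3 and -0.030 with the epithelial covariate (16 above 0). Its flavoprotein Ndufv1, which binds NADH, was at 121 and 145 FPKM in the controls and 157 and 218 FPKM in the deficient libraries, so both deficient libraries were higher (log2 fold change 0.48, SE 0.23, adjusted p = 0.755). Ndufv2, its iron-sulfur partner in the NADH-oxidizing arm, was likewise without overlap at 109 and 144 against 148 and 173 FPKM. Ndufs8, an iron-sulfur subunit of the arm that reaches ubiquinone, was at 217 and 228 against 239 and 289 FPKM. Other core subunits overlapped between the genotypes. Ndufs1, the largest iron-sulfur subunit, was at 55.2 and 71.5 FPKM in the controls and 68.3 and 98.8 in the deficient libraries, and Ndufs7, which carries the last iron-sulfur cluster before ubiquinone, at 155 and 195 against 176 and 249.7. In both genes control 3 exceeded deficient 1.

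Among the core subunits of complex I named here, Ndufs3 had another order over libraries. Its level was 52.9 and 38.9 FPKM in the controls, 17.7 FPKM in deficient 1 and 68.5 FPKM in deficient 3, so that the deficient libraries held both the lowest and the highest value. The log2 fold change of -0.36 was the lowest of the members and its SE of 0.61 exceeded it in size, and without deficient 1 it was 0.58. Ndufa1, an X-linked accessory subunit, was at 267 and 257 FPKM in the controls and 238 and 233 in the deficient libraries, a log2 fold change of -0.15 (SE 0.17, adjusted p = 0.834). Ndufa10, an accessory subunit, was at 249 and 268 against 235 and 278 FPKM (-0.01 on the log2 scale). These were the 3 members of 83 with a negative fold change.

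Ndufb9 and Ndufa4 were the most abundant genes assigned to complex I. Ndufb9, an accessory subunit of the membrane arm, was at 263 and 358 FPKM in the controls and 326 and 518 in the deficient libraries. Ndufa4, counted here in complex I by its symbol though its protein associates with complex IV, was at 246 and 369 against 316 and 461 FPKM. Both were lowest in control 1 and highest in deficient 3, with control 3 above deficient 1. The largest positive log2 fold changes of the complex belonged to Ndufv1 and to the membrane-arm subunit Ndufb4, whose levels were 78.6 and 124 against 112 and 169.6 FPKM (log2 fold change 0.48, SE 0.31). Its near-identical copies Ndufb4b, the member of the complex with the lowest mean level, and Ndufb4c were at 1.90 and 2.80 against 3.76 and 1.41 FPKM and 6.53 and 7.76 against 6.86 and 9.02 FPKM, and Ndufb4 made up 90.3% to 94.2% of the sum of the 3. How reads were divided between these copies is uncertain.

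Complex II, the succinate dehydrogenase, belongs to both the tricarboxylic acid cycle and the respiratory chain and is encoded by 4 nuclear genes alone. All 4 ran in the order deficient 3, control 3, deficient 1, control 1. The flavoprotein Sdha, which oxidizes succinate, was at 184 and 230.4 FPKM in the controls and 191 and 297 in the deficient libraries, and the iron-sulfur protein Sdhb at 292 and 391 against 381 and 536. The membrane anchors Sdhc and Sdhd were at 132 and 179 against 159.7 and 226 FPKM and at 209 and 296 against 282 and 369 FPKM. The log2 fold changes lay between 0.21 for Sdha and 0.42 for Sdhb, and the groups overlapped for each gene. Their median of 0.34 was 0.10 without control 1, 0.11 without deficient 3 and -0.07 with the epithelial covariate.

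Complex III, the cytochrome bc1 complex, had the highest median log2 fold change, 0.47 over 9 members, all above 0. It was 0.21 without control 1, 0.18 without deficient 3 and -0.018 with the epithelial covariate (4 above 0). Cyc1, the cytochrome c1 that hands electrons to cytochrome c, was at 230.2 and 316 FPKM in the controls and 305 and 507 in the deficient libraries (log2 fold change 0.54, SE 0.31, adjusted p = 0.755). Control 3 and deficient 1 differed little, and control 1 and deficient 3 stood to either side. Uqcrc1, a core protein and the most abundant member of the complex, was at 364 and 453 against 501 and 683 FPKM, without overlap (0.53, SE 0.24, adjusted p = 0.755). Uqcrq, a small subunit beside cytochrome b and the least abundant member, was also without overlap at 76.4 and 106 against 112 and 149 FPKM. These were the 2 genes of complex III whose deficient libraries both exceeded both controls.

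The Rieske iron-sulfur protein Uqcrfs1 was at 161 and 236 FPKM in the controls and 223 and 335 in the deficient libraries. The second core protein Uqcrc2 was at 124 and 164 against 147 and 227 FPKM and the small subunit Uqcr10 at 348 and 444 against 433 and 593. In all 3 control 3 exceeded deficient 1. Uqcrh, the hinge protein that helps cytochrome c dock, was at 353 and 408 against 347 and 449 FPKM with a log2 fold change of 0.06 (SE 0.22), the lowest of the complex.

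Complex IV, cytochrome c oxidase, had 14 members tested, all with a log2 fold change above 0 and with a median of 0.29. That median was 0.06 without control 1 (10 above 0), 0.09 without deficient 3 (9 above 0) and -0.13 with the epithelial covariate (6 above 0). Cox4i1, the general isoform of subunit 4, was the most abundant of them at 686 and 784 FPKM in the controls and 849 and 1142 in the deficient libraries, without overlap (0.42, SE 0.25, adjusted p = 0.755). Cox5a, which binds subunit 4, was also without overlap, at 227 and 336 against 344 and 423 FPKM. Cox5b, a zinc-binding subunit on the matrix side, was at 410.2 and 502 against 443 and 530.0 FPKM and overlapped. Cox6b1, which joins the monomers of the enzyme, was at 564 and 759 against 749.9 and 1066 FPKM, with control 3 just above deficient 1. Cox8a, the general isoform of the smallest subunits, was at 604 and 697 against 639 and 775 FPKM (log2 fold change 0.12, SE 0.22).

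For most isoform pairs of complex IV the general isoform carried nearly all of the level. Cox4i1 accounted for 99.96% or more of the subunit 4 total, and the lung isoform Cox4i2 was at 0.28 and 0.12 FPKM in the controls and 0.10 and 0.38 FPKM in the deficient libraries. Cox6a1 was at 433 and 550.4 against 477 and 641 FPKM, against 0.40 and 1.07 and 0.53 and 1.12 FPKM for the heart and muscle isoform Cox6a2. The testis isoform Cox6b2 was at 1.79 and 1.47 FPKM in the controls and 2.47 and 3.19 in the deficient libraries, without overlap, and held at most 0.33% of the subunit 6b total. Cox7b was at 78.1 and 134 against 105 and 150.0 FPKM, and its testis isoform Cox7b2 was listed at 0 in 3 libraries and at 0.20 FPKM in deficient 3.

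Counted with the related Cox7a2l, subunit 7A differed from these pairs, since more than 1 of the genes had a high level. Between Cox7a1 and Cox7a2 alone, the general isoform was far higher in each library, as in the pairs above. Cox7a1, the heart and muscle isoform, was at 6.17 and 16.7 FPKM in the controls and 11.8 and 28.3 in the deficient libraries, with the largest log2 fold change of the 83 members (0.78, SE 0.58, adjusted p = 0.776), but control 3 exceeded deficient 1. Its share of the family was 1.36% and 3.31% in the controls and 2.35% and 5.23% in the deficient libraries, higher in the libraries numbered 3 of either genotype. Cox7a2, the general isoform, was at 182 and 249 against 213 and 274 FPKM, or 40.3% and 49.3% against 42.4% and 50.8% of the family. Cox7a2l, a related protein that takes part in supercomplexes of complexes III and IV, was at 264 and 239.9 against 278 and 237 FPKM, and its share of 58.3% and 47.4% against 55.2% and 44.0% was lower in the libraries numbered 3. Cox7a2l had the lowest log2 fold change of complex IV (0.03, SE 0.18).

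**Figure D4:**
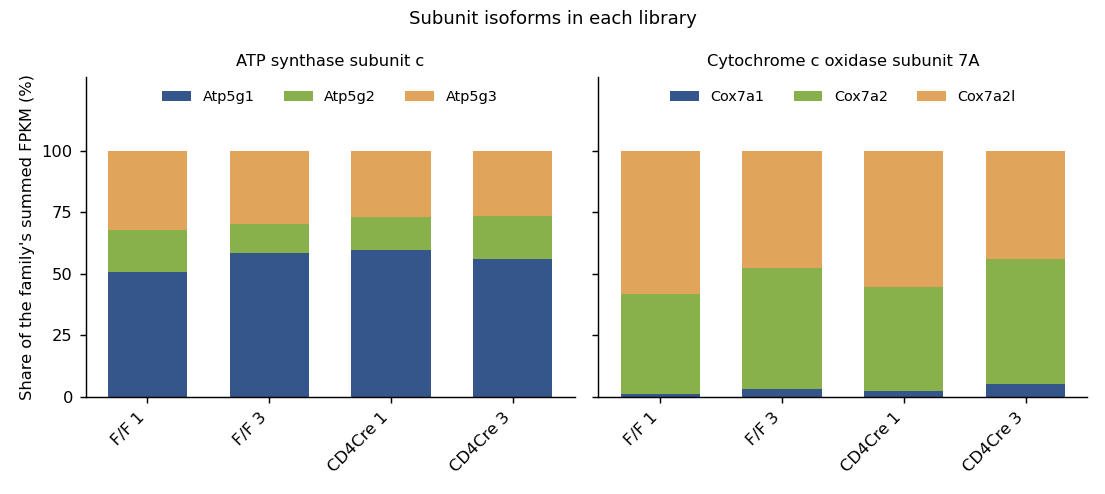
Share of each isoform in the summed FPKM of its family (vertical axis, %) in each library (bars; F/F, Kdm6b F/F; CD4Cre, Kdm6b F/F-CD4Cre) for the 3 genes of ATP synthase subunit c and the 3 of cytochrome c oxidase subunit 7A. Atp5g1 holds 50.9% to 59.6% of subunit c. Shares of subunit 7A, counted with the related Cox7a2l, are split by replicate number rather than by genotype.

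Complex V, the ATP synthase, had 17 members tested, all above 0 and with a median log2 fold change of 0.22. Without control 1 this was 0.05 (10 above 0), without deficient 3 it was -0.0069 (8 above 0) and with the epithelial covariate -0.13 (3 above 0). The catalytic β subunit Atp5b was the most abundant of all members, at 719 and 959 FPKM in the controls and 790.3 and 1268 in the deficient libraries (log2 fold change 0.27, SE 0.32, adjusted p = 0.843). The α subunit Atp5a1, which alternates with β in the catalytic head, was at 298 and 411 against 348 and 518 FPKM, and the γ subunit Atp5c1 of the rotating stalk at 458 and 529.6 against 493 and 636. In all 3 the order was deficient 3, control 3, deficient 1, control 1. Atp5o, the stator subunit that holds the head, was without overlap at 209.5 and 276 against 292 and 417 FPKM (0.54, SE 0.26, adjusted p = 0.755). The accessory subunit Atp5k was the least abundant of the complex at 67.6 and 115 against 101 and 147 FPKM. Atp5h, a stator subunit at 432 and 503 against 445 and 532 FPKM, and Atp5e, the ε subunit at 235 and 277 against 259 and 275 FPKM, had the lowest log2 fold changes of the complex, both 0.06.

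Subunit c, which forms the rotor ring, is encoded by 3 genes whose mature proteins are alike. Atp5g1 was at 271 and 423 FPKM in the controls and 422 and 567 in the deficient libraries (log2 fold change 0.53, SE 0.29), and control 3 and deficient 1 were nearly equal. Atp5g2 was at 89.5 and 87.1 against 94.8 and 179 FPKM, so that 3 libraries lay close together and deficient 3 stood apart (0.55, SE 0.32). Atp5g3 was at 172 and 215 against 191 and 267 FPKM. Atp5g1 thus held the largest share in each library, 50.9% and 58.4% in the controls and 59.6% and 56.0% in the deficient libraries, and the share of Atp5g3 was 32.3% and 29.6% against 27.0% and 26.4%.

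Promoters of these genes are known to hold sites for the nuclear respiratory factor NRF1, for ETS factors such as GABP, for YY1 and for the oestrogen-related receptors (ERR), so the windows from 250 bases before to 50 bases after the start of each gene were searched on both strands. A RefSeq promoter window was at hand for 69 of the 85 members. The NRF1 letters GCGCANGCG were found for 20 of them (29.0%), against 7.03% of 27025 genes with a window and 15.4% of the genes tested that had one. The ETS letters CCGGAAG were found for 17 (24.6%, against 9.93% and 21.1%), the YY1 letters AAGATGGCG for 7 (10.1%, against 1.64% and 3.70%) and the ERR letters TCAAGGTCA for 2, Atp5g3 and Sdhd (2.90%, against 0.466% and 0.311%). A match is a string of letters and not a measured site. Near-palindromic NRF1 strings match on both strands at neighbouring positions and then overlap.

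Sequences upstream of the start are shown for 1 member each of 4 complexes that share these letters, from RefSeq on GRCm38.p6, in the direction of transcription (all on the minus strand) and with matches in capitals. Ndufb4 (chr16:37654369-37654618) and Sdha (chr13:74350241-74350490) hold 3 NRF1 matches each, Cox6a1 (chr5:115348959-115349208) holds NRF1 matches and an ETS match on the other strand, and Atp5h (chr11:115419920-115420169) holds 1 of each.
Ndufb4: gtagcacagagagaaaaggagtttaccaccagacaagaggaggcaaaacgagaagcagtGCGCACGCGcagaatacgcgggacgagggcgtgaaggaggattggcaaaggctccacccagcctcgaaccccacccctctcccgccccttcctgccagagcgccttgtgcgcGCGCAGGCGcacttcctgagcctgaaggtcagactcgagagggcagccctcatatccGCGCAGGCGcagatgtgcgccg
Sdha: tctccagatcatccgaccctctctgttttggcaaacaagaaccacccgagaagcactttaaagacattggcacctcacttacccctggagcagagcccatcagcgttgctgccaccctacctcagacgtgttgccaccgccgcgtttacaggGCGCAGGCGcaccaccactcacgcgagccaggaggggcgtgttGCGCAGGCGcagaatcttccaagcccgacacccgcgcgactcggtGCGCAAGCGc
Cox6a1: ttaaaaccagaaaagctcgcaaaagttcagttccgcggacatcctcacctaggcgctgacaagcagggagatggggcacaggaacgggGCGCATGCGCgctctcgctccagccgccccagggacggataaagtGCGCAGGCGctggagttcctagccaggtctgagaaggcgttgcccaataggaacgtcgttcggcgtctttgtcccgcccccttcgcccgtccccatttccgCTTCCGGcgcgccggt
Atp5h: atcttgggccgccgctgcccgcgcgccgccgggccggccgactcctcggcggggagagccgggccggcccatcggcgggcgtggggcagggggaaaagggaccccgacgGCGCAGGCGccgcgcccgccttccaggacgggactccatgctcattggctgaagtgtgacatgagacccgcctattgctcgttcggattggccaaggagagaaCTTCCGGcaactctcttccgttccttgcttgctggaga
The log2 fold changes of these 4 genes were 0.48, 0.21, 0.18 and 0.06. Uqcrc1, without overlap between the genotypes, had 3 NRF1 matches, all after the start.

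The 19 tested genes of a list of regulators of mitochondrial gene expression had values on either side of 0, with a median log2 fold change of -0.04 (-0.00031 to 0.07 without 1 library) and 7 above 0. In limma 0 had an adjusted p below 0.05 and 0 an unadjusted p below 0.05 (5.35% of all genes), and both deficient libraries lay above both controls for 2 (10.5%, against 18.4% of all genes) and below for 1 (5.26%, against 18.6%). Nrf1 was at 35.9 and 33.5 FPKM in the controls and 38.2 and 24.7 in the deficient libraries, Gabpb1, the partner of the DNA-binding Gabpa, at 50.8 and 49.1 against 49.6 and 26.9, and Yy1 at 13.4 and 8.22 against 11.7 and 6.11. In Nrf1, Gabpb1 and Yy1 deficient 3 was lowest, and the groups overlapped. Ppargc1a, the coactivator PGC-1α that drives mitochondrial biogenesis, was at 0.46 and 2.03 FPKM in the controls and 1.27 and 4.63 FPKM in the deficient libraries, in the same order over libraries as most members (log2 fold change 0.77, SE 0.59, adjusted p = 0.779). Mterf1a, a factor of mitochondrial transcription, was at 4.24 and 2.67 against 7.21 and 3.88 FPKM. None of 26 names of mitochondrially encoded transcripts was listed, and these were not analysed here.

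Assembly factors, which build the complexes without staying in them, had more mixed values. Of 48 tested, 34 had a log2 fold change above 0, the median was 0.13, and both deficient libraries lay above both controls for 15 (31.3%, against 18.4% of all genes) and below for 4 (8.33%, against 18.6%). The median was 0.02 with the epithelial covariate (26 above 0), 0.04 without control 1 and 0.06 without deficient 3. Cox11, a copper chaperone of complex IV, was at 4.38 and 2.75 FPKM in the controls and 11.9 and 9.77 in the deficient libraries, the sole assembly factor with an unadjusted p below 0.05 (log2 fold change 1.39, SE 0.32, adjusted p = 0.755). Tmem70, needed for ATP synthase assembly, followed with 24.0 and 31.1 against 34.0 and 49.5 FPKM. Sdhaf2, which helps attach flavin to Sdha, was at 33.2 and 28.8 against 27.9 and 25.2 FPKM and Sdhaf3, which helps mature Sdhb, at 12.5 and 12.7 against 10.5 and 11.1, both lower in both deficient libraries at log2 fold changes of -0.21.

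Carriers and channels that supply the complexes were mixed. Of 13 tested, 9 were above 0 (median log2 fold change 0.18, with 50.1% of all genes above 0), and both deficient libraries lay above both controls for 4 (30.8%, against 18.4% of all genes) and below for 1 (7.69%, against 18.6%). With the epithelial covariate the median was -0.06, with 4 above 0, without control 1 it was 0.07 and without deficient 3 it was -0.0053. Vdac1, the main channel of the outer membrane, was at 38.0 and 46.9 FPKM in the controls and 57.4 and 67.1 in the deficient libraries (log2 fold change 0.55, SE 0.20, adjusted p = 0.755), and Etfa, which passes electrons from fatty acid oxidation, at 111 and 153 against 161 and 211. The ADP/ATP carrier Slc25a4 lay the other way without overlap, at 119 and 108 against 96.1 and 67.8 FPKM (-0.49, SE 0.22), and Ucp2, an uncoupling protein of leukocytes, was at 546 and 443 against 411 and 462 FPKM. Slc25a4 was lowest in deficient 3, the library in which most oxidative phosphorylation genes were highest.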

How the data were processed

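RNA of sorted TCRαβ+CD8αα+ IELs was sequenced by the authors in 4 libraries used here, each a pool of 3 mice. Per the methods, clean reads were mapped to mm10 with HISAT and Bowtie2, and the submitters' processing notes name Bowtie2 2.2.5, RSEM 1.2.8 and GRCm38.p5, while the version of HISAT is not given in the sources used here. The deposited values are FPKM from RSEM, scaled by the authors to transcript length and mapped fragments, so depth is known only relatively and no counting error was computed.

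Gene symbols were taken from RefSeq on GRCm38.p6, which matched 18467 identifiers, left 114 without a symbol and did not apply to 758 predicted transcripts. The 12009 genes that reached 1 FPKM in 2 or more libraries were tested as log2(FPKM + 1) in limma 3.58.1 (R 4.3.3; lmFit, eBayes with a trend, 3.52 prior degrees of freedom), and p-values were adjusted over all of them by the method of Benjamini and Hochberg. The fit was tested on simulated data. Exact motif strings were counted in promoter windows with Python 3.11.15, and figures were drawn with matplotlib 3.10.9.

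Members and lists were chosen with earlier results of these data known. Genes named with values are, in each complex, core subunits, isoforms, the 2 highest and the 1 lowest in mean FPKM and the 2 highest and 2 lowest in log2 fold change, and the last 4 also in the other lists. Ndufa10, Ndufa12, Ndufb4c, Nrf1, Gabpa and the markers Cd3g, Cd4 and Cd8b1 were named in addition, after their values were seen. One gene of that rule is not reported here. Alternatives were the pseudocount, the filter, 3 other scalings, the replicate block, an epithelial covariate, limma without a trend and leaving out each library.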

Additional observations from a re-analysis of the deposited data

How the results depend on the processing

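The count of members with an adjusted p below 0.05 was 0 with a pseudocount of 0.1 FPKM, without a filter, with a filter of 5 FPKM, with median-of-ratios scaling, quantile normalization, scaling to Cd3 genes and Ptprc, the epithelial covariate, limma without a trend and without each library. Replicate numbers 1 and 3 occur in both genotypes, and nothing says that equal numbers mark pools prepared together. Deviations of same-numbered libraries correlated across 12009 genes (Pearson 0.560, Spearman 0.542), and genes are not independent replicates. With the replicate block, 7 members had an adjusted p below 0.05 (Cyc1, Uqcrc1, Uqcrq, Uqcrfs1, Cox7a1, Atp5g1 and Atp5o, all higher in the deficient libraries) and 35 (42.2%) an unadjusted p below 0.05. Of all genes, 22.8% then had an unadjusted p below 0.05 and 1019 an adjusted p below 0.05, 7.38% in the higher direction. In the other lists the block gave an adjusted p below 0.05 to 1 assembly factor (Cox11), 1 carrier (Etfa), 2 enzymes of the tricarboxylic acid cycle (Mdh2 and Suclg1), 5 mitochondrial ribosome genes and 0 regulators. It also did so for 22 epithelial, 2 T cell, 0 B cell and 2 myeloid markers and for 234 of the 2164 other genes at 50 FPKM or more. It changed no call of the other named members.

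Scaling to Cd3 genes and Ptprc moved the median of all genes to 0.34 and the members' median to 0.65. The medians of complexes I to V became 0.64, 0.71, 0.85, 0.66 and 0.59. That scaling left 0 members lower in both deficient libraries, against 3.397% of all genes. It left 19 members higher in both (22.89%), a smaller share than the 35.03% of all genes. Ndufa1 was then at 0.22, Ndufa10 at 0.36 and Ndufs3 at 0.0081. With the epithelial covariate, 1 member (1.2%) had an unadjusted p below 0.05 in limma, against 8.63% of all genes. Of all genes, 105 then had an adjusted p below 0.05. The members' median was -0.07, and the medians of complexes I to V were -0.030, -0.07, -0.018, -0.13 and -0.13. Log2 fold changes under that covariate became negative for 26 named members: Atp5a1 -0.18, Atp5b -0.22, Atp5c1 -0.069, Atp5e -0.082, Atp5g3 -0.13, Atp5h -0.15, Atp5k -0.12, Cox5b -0.15, Cox6a1 -0.17, Cox6a2 -0.39, Cox7a1 -0.34, Cox7a2 -0.18, Cox7b -0.28, Cox8a -0.10, Ndufa4 -0.17, Ndufb4 -0.084, Ndufb4c -0.12, Ndufb9 -0.072, Ndufs1 -0.015, Ndufs7 -0.10, Sdha -0.21, Sdhc -0.12, Sdhd -0.027, Uqcrc2 -0.10, Uqcrfs1 -0.025 and Uqcrh -0.20. Quantile normalization gave 2 members lower in both deficient libraries (2.41%, against 23.75% of all genes) and 19 higher (22.9%, against 13.85%). It left 70 of 83 members above 0. Named members that became negative were Atp5e -0.013, Atp5h -0.052, Cox6a2 -0.22, Cox7a2l -0.057, Ndufb4b -0.19 and Uqcrh -0.019.

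Without 1 library, members with an unadjusted p below 0.05 in limma numbered 0 to 9, against 1.924% to 12.71% of all genes. The 9 (10.84%) were found without Kdm6b-deficient replicate 1, where the share of all genes was 12.71%. Members whose remaining deficient values lay above the remaining control values numbered 19 to 75, against 28.94% to 39.24% of all genes. Those below numbered 1 to 6, against 28.6% to 39.41% of all genes. The members' median ran from 0.086 without control replicate 1 to 0.49 without Kdm6b-deficient replicate 1, and those of the complexes from 0.10 to 0.44 (I), 0.10 to 0.57 (II), 0.18 to 0.72 (III), 0.06 to 0.57 (IV) and -0.0069 to 0.47 (V, negative without Kdm6b-deficient replicate 3). Named members that changed sign without 1 library ranged from -0.0069 to 0.56 for Atp5a1, from -0.071 to 0.61 for Atp5b, from -0.052 to 0.18 for Atp5e, from -0.011 to 0.47 for Atp5g3, from -0.066 to 0.19 for Atp5h, from -0.050 to 0.24 for Cox5b, from -0.035 to 0.39 for Cox6a1, from -0.20 to 0.36 for Cox6a2, from -0.043 to 0.41 for Cox7a2, from -0.083 to 0.14 for Cox7a2l, from -0.089 to 0.68 for Cox7b, from -0.022 to 0.26 for Cox8a, from -0.14 to 0.11 for Ndufa10, from -0.46 to 0.52 for Ndufb4b, from -0.047 to 0.30 for Ndufb4c, from -1.31 to 0.58 for Ndufs3, from -0.11 to 0.53 for Sdha and from -0.13 to 0.24 for Uqcrh. With 1 library left in a group, that library was assumed to vary like the other group. Counting Ndufa4 in complex IV kept the medians of complexes I and IV within the spread between replicates. FPKM hold no counts, so no counting error was computed, and fold changes of low genes depend on the pseudocount (with 0.1 FPKM, 0.20 for Cox6a2 and 0.0035 for Ndufb4b).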

Other observations

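Enzymes of the tricarboxylic acid cycle and of pyruvate entry, which supply NADH and succinate to the respiratory complexes, had values close to those of the oxidative phosphorylation genes. Of 18 tested, 17 had a log2 fold change above 0, with a median of 0.29. All 18 were highest in deficient 3, against 33.1% of all genes tested. With the epithelial covariate their median was -0.11, with 4 above 0 and 14 below, and without deficient 3 it was -0.01, and without control 1 0.09. Both deficient libraries lay above both controls for 3 of them (16.7%, against 18.4% of all genes) and below for 0 (against 18.6%), and limma gave 0 with an adjusted p below 0.05 and 1 with an unadjusted p below 0.05, Mdh2 (5.56%, against 5.35% of all genes). Mdh2, the mitochondrial malate dehydrogenase, was at 423 and 569.7 FPKM in the controls and 678 and 836 in the deficient libraries (log2 fold change 0.62, SE 0.25, adjusted p = 0.755), and the groups did not overlap. Pcx, the pyruvate carboxylase that makes oxaloacetate, was at 0.55 and 0.65 FPKM in the controls and 1.42 and 2.60 FPKM in the deficient libraries (0.88, SE 0.36), a low level in each library. Dlst, a subunit of the 2-oxoglutarate dehydrogenase complex, was at 51.5 and 51.5 against 42.9 and 54.7 FPKM, and Idh3g, a regulatory subunit of isocitrate dehydrogenase, at 199 and 229 against 196 and 253 FPKM, the lowest log2 fold changes of the list (-0.09 and 0.06). In both deficient 1 was the lowest library.

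Proteins of the mitochondrial ribosome, which translates the mitochondrially encoded subunits, had medians between those of the oxidative phosphorylation genes and of all genes tested. The large subunit genes (symbols starting with Mrpl) had a median log2 fold change of 0.19, with 43 of 49 above 0, and the small subunit genes (Mrps) had 0.14, with 23 of 28 above 0. Both deficient libraries lay above both controls for 18 of 49 (36.7%) and 10 of 28 (35.7%), against 18.4% of all genes, and below both for 1 of 49 (2.04%) and 4 of 28 (14.3%), against 18.6%. Without control 1 the medians were 0.08 and 0.04, and without deficient 3 they were 0.10 and 0.11. In limma 4 of the 49 (8.16%) and 1 of the 28 (3.57%) had an unadjusted p below 0.05, against 5.35% of all genes, and 0 had an adjusted p below 0.05. With the epithelial covariate the medians were 0.0025 and -0.05, with 25 of 49 and 11 of 28 above 0. Of these genes 28 of 49 (57.1%) and 12 of 28 (42.9%) were highest in deficient 3 and lowest in control 1. The 2164 genes outside oxidative phosphorylation with a mean of at least 50 FPKM had a median log2 fold change of -0.05, and 22.0% of them were highest in deficient 3 and lowest in control 1.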
